A study of Mus musculus with 6 samples.

Results

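The chromosomal passenger and spindle checkpoint genes were taken as 10 named genes: Cdca8, Birc5, Aurkb and Incenp of the passenger complex, Bub1, Bub1b, Bub3, Mad2l1 and Ttk of the checkpoint, and the Polo kinase Plk1, which works with both. A probe set (a group of short array probes read as a single value) counted for a gene if the annotation of the array gave it that gene's symbol and no other. All 10 genes were measured, by 25 probe sets, among 18193 genes on the array. The genes were grouped by function, and Cdca8 was picked because its 2 groups of samples had been seen to be separate, so its difference is given as a description and is not used as support.

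The samples were haematopoietic stem cells (HSCs), the rare marrow cells that renew the blood. They came from SCL-tTA H2B-GFP mice, in which the tTA-S2 transactivator, made from the endogenous scl locus, drives a histone H2B-GFP fusion through a tetracycline-responsive element until doxycycline shuts it off. All mice had 170 days of doxycycline, and all cells shared 1 gate (CD34 and CD48 negative, lineage negative, Sca1, cKit and CD150 positive). The 3 LRC (label-retaining) samples were GFP-positive and the 3 non-LRC samples GFP-negative. The label is made only where the scl locus is active, and a GFP-negative cell may have diluted the label or never have made it. Mouse age and whether a sample pooled several mice are not given in the sources used here. The p-values set a difference between the groups against the spread between these samples within a group.

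Chromosomes are parted in mitosis only after sister kinetochores, the protein platforms on the centromeres, have attached to opposite spindle poles. The chromosomal passenger complex, made of the kinase Aurora B (Aurkb), its scaffold INCENP, borealin (Cdca8) and survivin (Birc5), sits at centromeres and releases wrong attachments. The spindle assembly checkpoint (Ttk, Bub1, BubR1 from Bub1b, Bub3, Mad2 from Mad2l1) holds back the anaphase-promoting complex until every kinetochore is attached. Transcripts of many of these genes are abundant in dividing cells and scarce in resting ones, and most HSCs in adult marrow rest. In a bulk sample, fewer dividing cells and less RNA per cell cannot be told apart.

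Late cell cycle genes are known to share promoter elements: the CHR, read by the MuvB complexes that silence these genes in resting cells, and CCAAT boxes, bound by NF-Y. The promoters were therefore read for TTTGAA and TTCGAA (CHR) and for CCAAT, on both strands, so that TTCAAA and ATTGG also count. RefSeq promoters of the build GRCm38.p6, from 250 bases before to 50 bases after each annotated start, were on hand for 8 of the 10 genes. Incenp and Aurkb had no entry. Cdca8, Bub1, Bub1b, Bub3, Ttk and Plk1, 6 of the 8, held both a CHR and a CCAAT box, against 7.53% of the 32851 promoters of all genes. CHR letters alone were in 19.2% of those promoters and CCAAT letters in 37.4%. The members were counted by gene and these shares by promoter, and a gene can have several promoters, so the units differ. Birc5 and Mad2l1 held neither in this window. The stretches shown run from position -100 to 30 around the start, with the matched letters in capitals. Cdca8 and Bub1 are shown because their groups did not overlap, Ttk because it holds the same elements while its groups overlapped, and Birc5 because it holds neither.
Cdca8, chr4:124936888-124937017, minus strand: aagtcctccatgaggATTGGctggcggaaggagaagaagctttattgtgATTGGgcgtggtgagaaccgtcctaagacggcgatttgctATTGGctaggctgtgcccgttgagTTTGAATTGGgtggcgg
Bub1, chr2:127831830-127831959, minus strand: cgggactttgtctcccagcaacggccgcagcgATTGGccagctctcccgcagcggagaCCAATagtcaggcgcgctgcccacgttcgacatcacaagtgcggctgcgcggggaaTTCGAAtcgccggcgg
Ttk, chr9:83834589-83834718, plus strand: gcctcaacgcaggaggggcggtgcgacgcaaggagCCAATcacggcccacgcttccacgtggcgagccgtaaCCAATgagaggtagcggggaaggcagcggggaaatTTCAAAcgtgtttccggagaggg
Birc5, chr11:117849137-117849266, plus strand: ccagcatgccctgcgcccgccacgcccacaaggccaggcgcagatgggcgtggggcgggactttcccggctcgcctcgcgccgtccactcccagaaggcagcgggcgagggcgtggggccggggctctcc

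The CHR of Cdca8 began at position 14 after the annotated start and that of Bub1 at position 15, and the Ttk match began at position 8. In Cdca8 the CHR shares its last base with the fourth CCAAT box, which reads ATTGG on the printed strand. The CHR of Plk1 began at position 31 and the nearer one of Bub1b at position 41, beyond the stretches shown. A match says only that these letters are there.

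LRC replicate 1 was least like the other arrays (Pearson r 0.901 to 0.919 over 45037 probe sets). The spike-in controls are foreign transcripts added before hybridization. They were brighter on LRC replicates 1 and 3 (11.24 and 11.02, log2) than on the other 4 arrays (10.58 to 10.70). LRC replicate 2 (10.60) lay within the non-LRC range, so the control level moves with the groups only in part. Of the gate's genes, Kit averaged 9.07 ± 0.07 in LRC against 9.05 ± 0.06 for non-LRC cells (SD, n = 3), and Cd48, which the gate excludes, lay at 2.60 ± 0.25 and 2.73 ± 0.48, near the floor. Slamf1, which encodes CD150 and is required by the gate, varied widely, at 6.24, 7.76 and 8.83 in LRC and 7.20, 8.26 and 8.48 in non-LRC. Cd34, which the gate excludes, read 2.52, 6.97 and 5.10 in LRC and 7.43, 6.60 and 5.62 in non-LRC, and was thus near the floor only on LRC replicate 1. Markers of erythroid, myeloid, lymphoid, megakaryocytic and endothelial cells, 22 genes measured of 26 listed, had 0 genes past the threshold of the limma fit over all probe sets, and 0 at an unadjusted p below 0.05.

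In the sorted HSCs, 8 of the 10 genes had a lower mean in LRC than in non-LRC, where 45.1% of all genes did. The median difference over the 10 genes was -0.42 on the log2 scale, a 1.34-fold lower level, against 0.03 over all genes. It was -0.26 without non-LRC replicate 1 and -0.71 without LRC replicate 2. All 4 passenger genes had the lower mean (median -0.81, or -0.43 over the 3 without Cdca8), as did 4 of the 5 checkpoint genes (median -0.41). Mad2l1 and Plk1 were the exceptions, with a higher mean in LRC. For 2 genes, Cdca8 and Bub1, the highest LRC value was under the lowest non-LRC value, as for 3.62% of all genes. The reverse held for 0 of the 10, and for 4.71% of all genes. Cdca8 entered these counts by its selection: of the 9 other genes, 7 had a lower mean in LRC (median -0.41) and 1, the dim Bub1, had separate groups. The fit used for these comparisons was limma over all 45037 probe sets, with Benjamini-Hochberg adjustment. It called 0 probe sets (0%) at an adjusted p below 0.05, and the 25 probe sets of these genes had adjusted p between 0.998 and 0.999. At an unadjusted p below 0.05 there were 1673 probe sets in all. Among the 25, 5 were lower in LRC at that level, against 1.97% of all probe sets, and 1 was higher, against 1.74%. Nothing is read from these shares, since the genes were chosen with this comparison known.

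**Figure D1:**
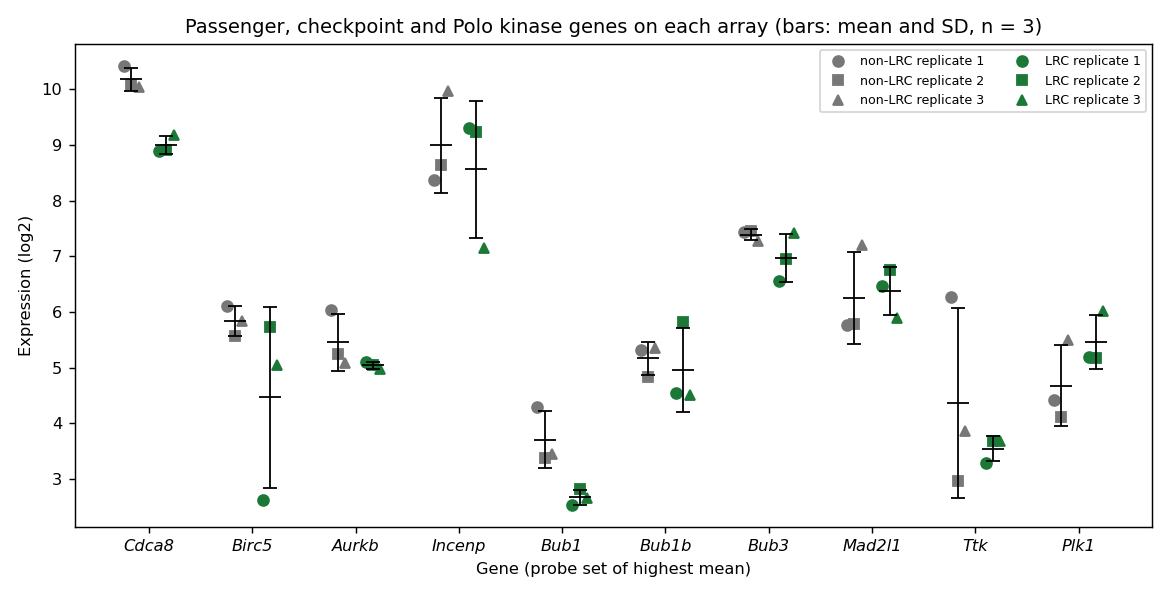
Expression (log2) of the 10 genes on each of the 6 arrays, from the probe set of highest mean; grey symbols are non-LRC, green symbols LRC, symbol shapes give the replicate number, and bars give mean and SD (n = 3). The groups are apart in Cdca8 and Bub1; LRC replicate 1 lies far down in Birc5, at 2.62, and non-LRC replicate 1 far up in Ttk, at 6.27.

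Cdca8 encodes borealin, which with survivin and INCENP anchors the passenger complex to centromeres. Its brightest probe set, 1436847_s_at, read 8.90, 8.91 and 9.18 in LRC replicates 1 to 3 and 10.42, 10.08 and 10.05 in non-LRC replicates 1 to 3 (log2). The LRC values sat close together and 0.87 below the nearest non-LRC value. The difference was -1.19 (SE 0.20), or 2.28-fold lower in LRC. Adjusted for spike-in brightness the difference was -1.24, and LRC replicate 2 alone, a single array, differed from the non-LRC arrays by -1.27. Neither value is a check, since Cdca8 was picked for its separate groups on these same arrays. They also overlap, as the bright spike-in controls were on LRC replicates 1 and 3. The other Cdca8 probe sets did not separate the groups. The second, 1428481_s_at, read 7.98, 6.72 and 7.84 in LRC and 7.54, 7.61 and 8.32 in non-LRC, so that only LRC replicate 2 lay below all non-LRC values. The third, 1428480_at, read 5.41, 5.37 and 5.34 against 5.60, 5.28 and 5.79. Their differences were -0.31 (SE 0.41) and -0.18 (SE 0.20), and averaging the 3 Cdca8 probe sets gave -0.56. The size of the Cdca8 difference thus depended on the probe set.

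Birc5 encodes survivin, which docks the complex on phosphorylated histone H3. It was read by 1 probe set, at 2.62, 5.73 and 5.04 in LRC and 6.11, 5.57 and 5.85 in non-LRC. LRC replicate 2 lay inside the non-LRC range, and LRC replicate 1 was near the floor of the array. The difference was -1.37 (SE 0.78), the lowest among the 10 genes, with a 95% interval from -3.25 to 0.50. It was -0.45 without LRC replicate 1, -0.11 for LRC replicate 2 alone, and -0.004 when adjusted for spike-in brightness. The LRC mean of 4.47 ± 1.63 was therefore set largely by 1 array.

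Aurkb encodes Aurora B, the kinase of the complex. It read 5.10, 5.05 and 4.98 in LRC and 6.04, 5.25 and 5.09 in non-LRC. The LRC values sat close together (SD 0.06), and only non-LRC replicate 1 stood clearly above them. The difference was -0.41 (SE 0.29), and -0.12 without non-LRC replicate 1. The second Aurkb probe set was dim, a term used here for a mean over the 6 arrays below the 40th percentile of all probe sets (3.80), and differed by -0.38 (SE 0.32).

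Incenp encodes the scaffold that binds and activates Aurora B, and its 5 probe sets disagreed. The brightest, 1439436_x_at, carries no accession in the annotation, and its suffix marks probes that can also match other transcripts. It read 9.30, 9.24 and 7.15 in LRC and 8.37, 8.64 and 9.97 in non-LRC, with broad overlap and a difference of -0.43 (SE 0.71). That difference became 0.28 when LRC replicate 3 was dropped and 0.06 when non-LRC replicate 3 was. The next, 1423092_at, read 3.75, 6.64 and 5.001 in LRC and 7.56, 6.14 and 7.40 in non-LRC. There LRC replicates 1 and 3 were low while LRC replicate 2 lay within the non-LRC range, the order seen in Birc5. Its difference of -1.90 (SE 0.77) was the lowest of all 25 probe sets. The other 3 differed by -0.09 (1439252_at), -0.05 (1441314_at) and 0.55 (1423093_at).

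**Figure D2:**
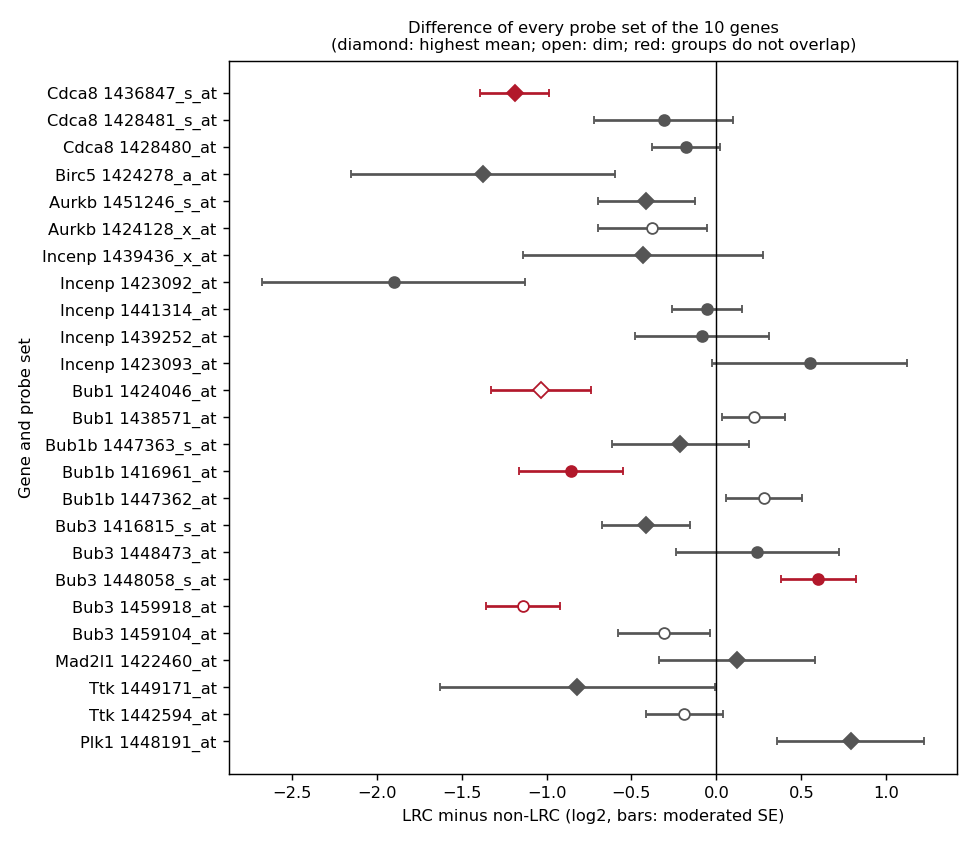
LRC minus non-LRC difference (log2) of all 25 probe sets, with moderated standard errors; diamonds mark the probe set of highest mean of each gene, open symbols dim probe sets and red symbols probe sets whose groups do not overlap. Of the 25, 18 lie below 0, and probe sets of Bub3 lie on both sides, from -1.14 to 0.60.

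Among the checkpoint genes, Bub1 encodes the kinase that marks centromeric histone H2A and gathers checkpoint proteins at kinetochores. It read 2.54, 2.81 and 2.66 in LRC and 4.30, 3.37 and 3.45 in non-LRC. The groups were 0.56 apart, but the probe set was dim, with LRC values near the floor, so the size of the difference of -1.03 (SE 0.29) is uncertain. It was -0.74 without non-LRC replicate 1. The other Bub1 probe set lay at the floor in every sample (1.60 to 2.15) and gave 0.22 (SE 0.19).

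Bub1b encodes BubR1, which binds and inhibits the activator of the anaphase-promoting complex. Its brightest probe set, 1447363_s_at, read 4.55, 5.82 and 4.50 in LRC and 5.33, 4.83 and 5.35 in non-LRC. LRC replicate 2 was the highest of all 6 arrays and the other LRC arrays the lowest. The difference of -0.21 (SE 0.40) was 0.02 without LRC replicate 3, 0.45 when adjusted for spike-in brightness and 0.65 for LRC replicate 2 alone. The second, 1416961_at, was almost as bright and read 3.91, 4.43 and 4.82 in LRC against 5.23, 4.92 and 5.58 in non-LRC. Every LRC value was the lower, by 0.10 at the nearest, with a difference of -0.86 (SE 0.30). The third probe set was dim and differed by 0.28 (SE 0.22).

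Bub3 encodes the carrier that brings Bub1 and BubR1 to kinetochores. It read 6.56, 6.95 and 7.42 in LRC and 7.43, 7.46 and 7.27 in non-LRC, with LRC replicate 3 inside the tight non-LRC range. The difference was -0.41 (SE 0.26) and, without LRC replicate 1, -0.20. The other 4 Bub3 probe sets pointed both ways. In 1459918_at, which was dim, LRC (2.57 to 3.20) was wholly below non-LRC (3.98 to 4.10), and in 1448058_s_at LRC (4.42 to 4.82) was wholly above non-LRC (3.71 to 4.19). Their differences were -1.14 (SE 0.22) and 0.60 (SE 0.22). Over all 25 probe sets, 4 had LRC wholly below non-LRC, against 3.4% of all probe sets, and 1 wholly above, against 4.88%. Bub3 thus gave no single direction.

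Mad2l1 encodes Mad2, the subunit that binds Cdc20 when a kinetochore is unattached. It read 6.47, 6.76 and 5.90 in LRC and 5.77, 5.78 and 7.21 in non-LRC. The LRC values lay inside the non-LRC range, and the difference of 0.12 (SE 0.46) had a 95% interval from -0.99 to 1.23. Its sign turned when single arrays were left out (-0.12 to 0.60).

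Ttk encodes Mps1, the kinase that starts the checkpoint signal. It read 3.28, 3.68 and 3.68 in LRC and 6.27, 2.96 and 3.86 in non-LRC. Non-LRC replicate 1 stood far above the other 5 arrays, which overlapped. The difference of -0.82 (SE 0.81) was 0.14 without that array. The second Ttk probe set, which was dim, differed by -0.19 (SE 0.23).

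Plk1, the Polo kinase of mitotic entry and kinetochore attachment, had the larger of the 2 positive differences among the 10 genes. It read 5.19, 5.18 and 6.03 in LRC and 4.42, 4.11 and 5.50 in non-LRC. Non-LRC replicate 3 lay above LRC replicates 1 and 2, so the groups overlapped. The difference was 0.79 (SE 0.43), with a 95% interval from -0.26 to 1.84, and it was positive with each array left out (from 0.51 up). Plk1 had no other probe set to set beside it.

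**Figure D3:**
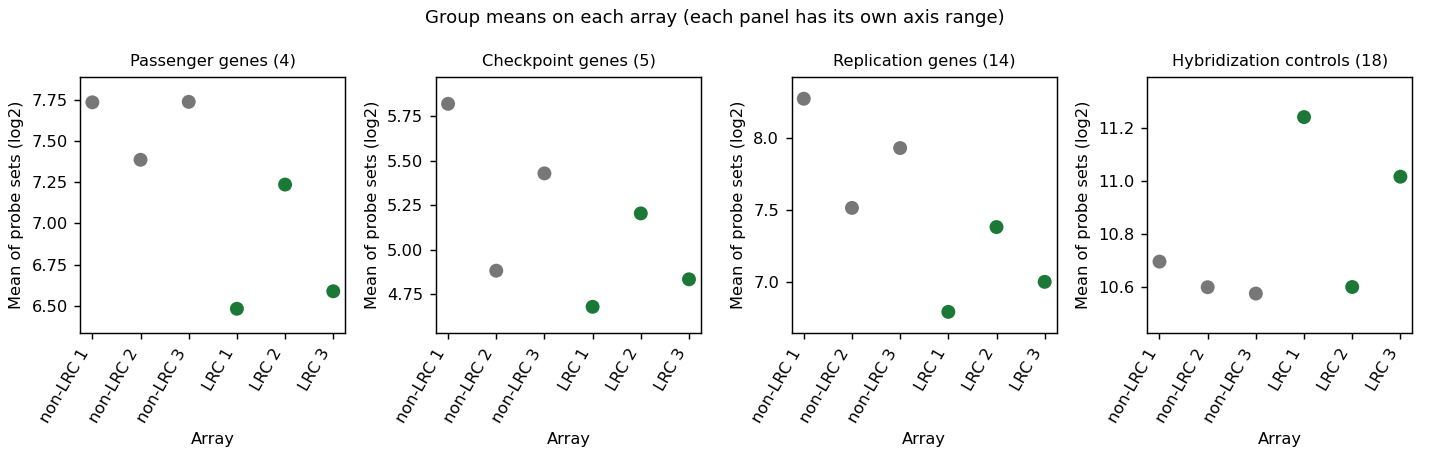
Mean log2 expression on each array of the 4 passenger genes, the 5 checkpoint genes and 14 replication genes, each from its brightest probe set, and of 18 spike-in (hybridization) control probe sets; grey is non-LRC, green is LRC. LRC replicates 1 and 3 are lowest in the passenger panel (6.48 and 6.59) and highest in the control panel (11.24 and 11.02).

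Across arrays, the passenger genes averaged 6.48, 7.24 and 6.59 in LRC replicates 1 to 3 and 7.74, 7.39 and 7.74 in non-LRC. All LRC means lay below, with LRC replicate 2 only slightly so, but this rested on Cdca8, which was picked for its separated groups. Without Cdca8 the other 3 passenger genes averaged 5.68, 6.68 and 5.72 in LRC and 6.84, 6.49 and 6.97 in non-LRC, and LRC replicate 2 lay above non-LRC replicate 2. With Cdca8 the group means were 6.77 ± 0.41 for LRC and 7.62 ± 0.20 (SD, n = 3) for non-LRC. The checkpoint genes averaged 4.68, 5.20 and 4.83 in LRC and 5.82, 4.88 and 5.43 in non-LRC, where LRC replicate 2 lay above non-LRC replicate 2. The lowest passenger means were on the arrays with bright spike-in controls. Adjusted for that brightness, the median difference of the 10 genes was -0.21, and for LRC replicate 2 alone it was -0.26. In that single-array comparison, which has no replicate check, Cdca8 differed by -1.27, Bub1 by -0.89 and Birc5 by -0.11.

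Counted array by array, LRC replicate 1 had 5 of the 10 genes below the range of the 3 non-LRC values, LRC replicate 2 had 4 and LRC replicate 3 had 6, Cdca8 being among them each time. For all genes these shares were 24.0%, 28.7% and 23.8%. Above the range lay 0, 1 and 1 of the 10 genes, against 39.5%, 19.1% and 30.3% of all genes. The gene above the range was Bub1b on LRC replicate 2 and Plk1 on LRC replicate 3.

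Partners of these genes were described in the same way. Of all genes, 45.1% had a lower mean in LRC and 3.62% had LRC wholly below non-LRC. Of 11 genes that recruit the passenger complex or belong to the Aurora and Polo kinase circuits, 9 had a lower mean in LRC (median -0.49, or -0.30 without non-LRC replicate 1). Bora, the activator of Aurora A toward Plk1, read 5.77, 6.10 and 4.92 in LRC and 7.13, 6.60 and 6.32 in non-LRC. The groups did not overlap and differed by -1.09 (SE 0.37). Rcc2, a passenger-associated exchange factor, differed by -0.49 (SE 0.24), also without overlap, and Sgo1, which protects centromeric cohesion and helps to place the passenger complex, by 0.07 (SE 0.24). None of the 11 passed the threshold of the limma fit, nor did any gene of the lists that follow. At an unadjusted p below 0.05 there was 1 of these 11, where 3.75% of all genes were, and 1 of 8 further checkpoint genes, 1 of 10 kinetochore genes, 1 of 18 centromere genes and 8 of 14 replication genes.

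Of 8 further checkpoint genes, 5 had a lower mean in LRC, with a median of -0.02, or -0.19 without LRC replicate 3. The extremes were Cdc20, the target of the checkpoint, with 4.38, 5.39 and 5.96 in LRC and 7.94, 7.74 and 7.60 in non-LRC (difference -2.52, SE 0.41), and Trip13, the ATPase that recycles Mad2, with 0.29 (SE 0.33). Zwilch, of the complex that brings dynein to kinetochores, differed by -1.12 (SE 0.50). Cdc20 and Zwilch had LRC wholly below non-LRC, and the other 6 genes had overlapping groups.

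The kinetochore network that binds microtubules had 5 of 10 genes lower and 5 higher in LRC (median -0.05). Zwint, which links it to the checkpoint, read 6.12, 8.36 and 5.85 in LRC and 8.94, 8.54 and 8.38 in non-LRC, and differed by -1.84 (SE 0.67), with LRC replicate 2 just under the non-LRC range. Dsn1 differed by -1.34 (SE 0.96) and Nsl1, which was dim, by 0.47 (SE 0.31). This list's median ran from -0.34 without LRC replicate 3 to 0.27 without LRC replicate 1, and was 0.13 without non-LRC replicate 1.

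Of 18 centromere proteins, 14 had a lower mean in LRC (median -0.16), and 0 had separated groups. Cenpk and Cenph, of the inner kinetochore, differed by -1.82 (SE 0.94) and -1.50 (SE 0.58), and Mis18a, which primes the deposition of the centromeric histone, by 0.41 (SE 0.31). The median was -0.29 without LRC replicate 2, -0.27 without non-LRC replicate 1 and 0.10 when adjusted for spike-in brightness.

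For comparison, 13 of 14 replication origin and fork genes had a lower mean in LRC, where 45.1% of all genes did. Their median was -0.86, or -0.55 when adjusted for spike-in brightness. Of these genes, 8 had LRC wholly below non-LRC, against 3.62% of all genes. Gins1, of the replicative helicase, differed by -1.37 (SE 0.35), Gmnn, the licensing inhibitor, by -1.17 (SE 0.35), and Cdc45 by 0.19 (SE 0.20). Their array means were 6.79, 7.38 and 7.002 in LRC and 8.27, 7.51 and 7.93 in non-LRC. The difference between these lists and the 10 genes was not tested, and all lists were chosen with earlier results of these data known.

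**Figure D4:**
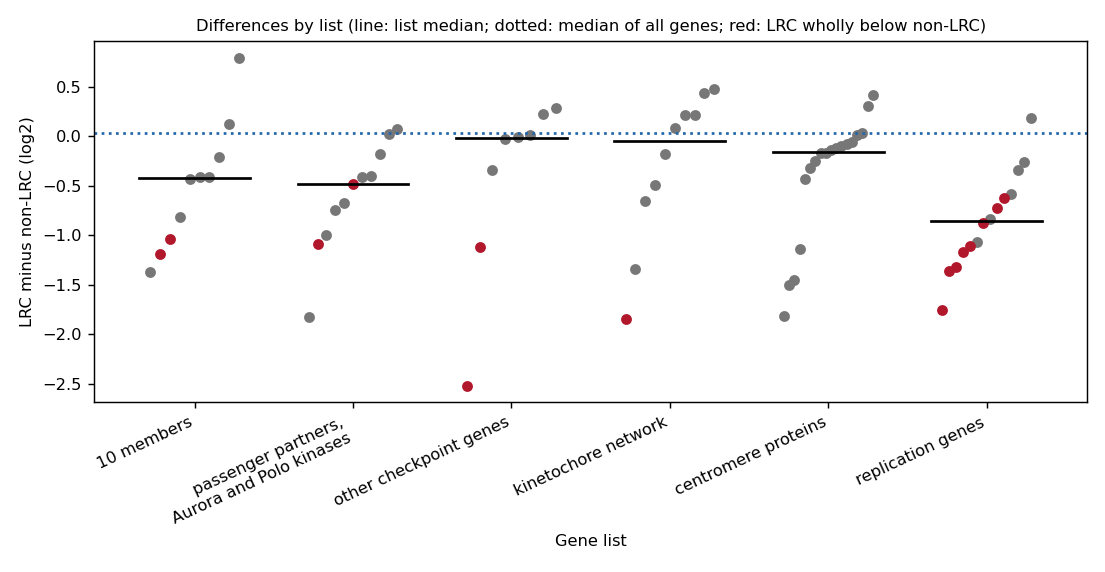
LRC minus non-LRC difference (log2) of each gene in 6 lists, sorted within a list; black lines are list medians, the dotted line the median of all genes (0.03), and red points genes with LRC wholly below non-LRC. Such genes number 2 among the 10 genes and 8 among the replication genes, against 3.62% of all genes.

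Among markers of other cells, several stood out on a single array. Car1, an erythroid carbonic anhydrase, stood at 7.34 on non-LRC replicate 1 and between 3.08 and 3.98 on the other 5 arrays. S100a8, a myeloid marker, was at 8.27 on that array and between 4.27 and 5.74 elsewhere. The erythroid Klf1 also read highest there (6.76), with LRC replicate 1 next at 6.21 and the others between 2.93 and 4.24. The myeloid Elane (6.20, elsewhere 4.61 to 5.33) and Prtn3 (7.64, elsewhere 6.21 to 7.38) read highest on non-LRC replicate 1 too. Epor, Mpo, Ctsg and the dim Hba-a1 of the same lists did not. On that array Hba-a1, a globin, read 3.003 against 2.86 to 3.30 elsewhere, and Ctsg, a granule protease, 5.66 against 4.67 to 8.02. Mpo, myeloperoxidase, was at 4.03 on LRC replicate 1 and between 7.57 and 9.20 elsewhere. Elane (4.61) and Ctsg (4.67) were also lowest on LRC replicate 1, while Prtn3 (7.38) and S100a8 (5.53) were not. Gp1bb, a platelet glycoprotein, was at 6.94 on non-LRC replicate 3 and between 3.39 and 4.73 elsewhere. Pf4 (7.75), Gp9 (6.99) and Vwf (9.16) also read highest on non-LRC replicate 3, and Itga2b (7.79) did not. Cdca8, Birc5, Aurkb, Bub1 and Ttk also read highest on non-LRC replicate 1, and the part of other cells in this was not tested. Without that array Cdca8 differed by -1.07, Birc5 by -1.24, Bub1 by -0.74, Aurkb by -0.12 and Ttk by 0.14. The 4 erythroid markers averaged 3.71 to 4.46 in LRC and 3.49 to 5.69 in non-LRC, and the 5 myeloid markers 5.25 to 6.69 and 6.20 to 7.36. The 5 lymphoid markers averaged 3.79 to 4.14 and 3.70 to 4.08, the 5 megakaryocyte markers 6.01 to 6.63 and 6.44 to 7.72, and the 3 endothelial markers 4.15 to 4.63 and 3.995 to 4.90. LRC replicate 1, on which Birc5 was near the floor, was also the array on which Cd34 was.

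Genes with a profile most like that of Cdca8 were sought among 12454 genes that were not dim, as the smallest mean absolute difference over the 6 arrays after each probe set's own mean was subtracted. These were Nfatc4 (0.09), Rbpms (0.13), Pwwp2a (0.16), Zfp101 (0.16), Rfxap (0.18) and Atn1 (0.18), all on the log2 scale. None was among the 10 genes or their listed partners. Of the other members that were not dim, Bub3 and Aurkb came nearest, at ranks 508 and 515 (0.39 each), and Incenp and Plk1 were far off, at ranks 11708 and 11503. Over so few arrays many genes can share a profile.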

How the data were processed

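RNA from 6 sorted HSC samples, 3 LRC and 3 non-LRC, was amplified in 2 rounds, biotin-labelled and read on 1 expression array each, per the labels' protocols. The authors deposited log2 expression values, with a single value for each probe set on each array. RMA is named in the submitters' processing notes without a version; it quantile-normalizes arrays, which hides any change in the total RNA of a cell. The log base was inferred from the span of values; software and background model are not given in the sources used here. Arrays have no read depth, and the precision of a difference rests on their number and on the spread between samples.

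Of 45101 probe sets, 64 controls were left out and 45037 tested. The platform annotation gave 34945 of them 1 gene symbol, 932 several and 9160 none; genes were named only from the first kind. Each gene took the values of its brightest probe set (highest mean of 6 arrays). LRC was compared with non-LRC with R 4.3.3 and limma 3.58.1 (linear model with empirical Bayes moderation, no covariate, Benjamini-Hochberg over all 45037, threshold 0.05). Errors of differences are moderated standard errors. Columns of other samples numbered 0.

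All 10 genes were named. In each further list the 2 genes with the lowest and the 1 with the highest moderated t were named, and then the 6 genes most like Cdca8; for marker lists, genes that bear on a result were named after their values were seen. The members and lists were chosen with earlier results of these data known. In simulated arrays of this comparison over 45037 probe sets, the fit recovered 0% of 50 probe sets changed by 1 (log2), 76% at 2, 90% at 3 and 100% at 4, with 10 false calls. The simulated noise was normal and independent between arrays, with the spread of each probe set pulled toward the median spread. Real arrays may differ from this setting. Listed genes that no probe set names alone are not analysed here.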

Additional observations from a re-analysis of the deposited data

How the results depend on the processing

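The count of 0 called probe sets was also found after a further quantile normalization, median centring, leaving out dim probe sets, trend and robust moderation, array weights, each array left out, the spike-in covariate and a threshold of 0.1. It was 1673 at an unadjusted p below 0.05 and 774 with a change of at least 2-fold added. The median difference of the 10 genes was negative in each of these settings that gives one, and ran from -0.71 to -0.26 with single arrays left out. The count of genes with LRC wholly below non-LRC was 1 without dim probe sets, which removes Bub1, and 2 to 4 with single arrays left out (4 without non-LRC replicate 2, non-LRC replicate 3 or LRC replicate 2), where fewer values need to be apart. The share of all genes in these settings is not given here, so nothing is read from these counts. Replicate numbers are shared by the groups but not said to pair them, and same-numbered arrays deviated together only weakly (r 0.08, 0.14 and 0.08); with the replicate number as a block 0 probe sets were called and the median was -0.42. Over 139 values of single genes, 0 were called and 9 turned sign. These were Bub1b with the spike-in covariate (0.45), Mad2l1 with array weights (-0.15), and with single arrays left out Mad2l1 (-0.12 to 0.60), Ttk (-1.52 to 0.14), Incenp (-0.80 to 0.28) and Bub1b (-0.64 to 0.0155). Chosen after seeing the data, LRC replicate 2 as the only LRC array turned Incenp (0.25) and Bub1b (0.65), and the second Incenp probe set gave a median of -0.62. The causes were not tested. A log2 change of 1 was not recovered in the simulated arrays, which set no detection limit for the real ones.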
